A study of Mus musculus with 6 samples.

Results

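The ARID-domain genes other than Arid3 were followed across the open chromatin of mouse intestinal crypts, in wild-type (WT) animals and in animals with a conditional knockout of Arid3a (cKO). They were 10 named genes, Arid1a, Arid1b, Arid2, Arid4a, Arid4b, Arid5a, Arid5b, Kdm5a, Kdm5b and Jarid2, of the 21911 protein-coding genes in the annotation. Their peaks were chosen by position only, as those whose summit lay in the gene body or within 10000 bp of either end. This gave 116 of the 71286 consensus peaks, which are peaks merged over all samples wherever they overlapped.

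ATAC-seq was performed on dissociated crypts, the pouches between the villi where intestinal stem cells and their dividing progeny sit. There were 3 WT and 3 cKO samples. The cKO animals were VillinCre-ERT2+/-; Arid3a fl/fl, in which the Villin promoter drives a tamoxifen-dependent Cre recombinase in intestinal epithelial cells and leaves Arid3a intact in stromal cells. The control animals were Arid3a WT, and whether they carried the Cre transgene is not given in the sources used here. Both groups were given tamoxifen on 3 days in a row, and crypts were taken 1 month after the first injection. The labels number the samples of each genotype from 1 to 3 and do not tie them to animals, so the spread between samples may hold technical spread. The peak over Arid3a itself does not check the deletion, since a promoter peak was called there in every sample of either genotype.

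The ARID, or AT-rich interaction domain, is a DNA-binding fold that was first known from proteins that prefer A and T, although several members bind DNA with little preference for sequence. Most of these 10 genes encode parts of chromatin complexes. ARID1A and ARID1B are alternative subunits of the BAF nucleosome remodeler and ARID2 is a subunit of the related PBAF complex. ARID4A and ARID4B belong to the SIN3 histone deacetylase complex, KDM5A and KDM5B remove methyl groups from lysine 4 of histone H3, and JARID2 is a cofactor of the Polycomb repressive complex PRC2.

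An ATAC-seq peak is a stretch where transposase cuts are denser than the local background, and its fold enrichment is the ratio of the signal at the summit to that background. Fold enrichment was read only as a rank. The list percentile is the place of a peak among all peaks of its own list, and the shared percentile is its place among the 32748 consensus peaks that were called in all 6 lists, with 100 the strongest. A promoter peak had its summit from 1000 bp upstream to 100 bp downstream of an annotated transcript start of the gene, and all others were distal unless they lay at the start of another gene.

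The sequences around 6 summits on which the comparisons turn are shown first, 5′ to 3′ from GRCm38.p6. They are the promoters of Kdm5a and Kdm5b, paralogs far apart in rank, 3 peaks whose ranks did not overlap between the genotypes, and the Jarid2 peak that stood near the top of every list. Capitals mark the letters of an AP-1 site (TGACTCA or TGAGTCA), an ARID5 site (AATATT) or an SP and KLF site (GGGCGG or its complement CCGCCC).
Kdm5a promoter, chr6:120363781-120363981, plus strand: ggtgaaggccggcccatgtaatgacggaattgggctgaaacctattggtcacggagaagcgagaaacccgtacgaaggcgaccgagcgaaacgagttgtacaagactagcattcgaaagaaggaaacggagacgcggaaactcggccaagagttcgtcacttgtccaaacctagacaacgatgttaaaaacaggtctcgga
Kdm5b promoter, chr1:134560502-134560702, plus strand: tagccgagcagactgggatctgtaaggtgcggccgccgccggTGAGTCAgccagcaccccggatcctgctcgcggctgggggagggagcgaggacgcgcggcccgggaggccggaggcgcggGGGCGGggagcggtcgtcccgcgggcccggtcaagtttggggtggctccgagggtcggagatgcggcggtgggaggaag
Kdm5b upstream peak, chr1:134556919-134557119, plus strand: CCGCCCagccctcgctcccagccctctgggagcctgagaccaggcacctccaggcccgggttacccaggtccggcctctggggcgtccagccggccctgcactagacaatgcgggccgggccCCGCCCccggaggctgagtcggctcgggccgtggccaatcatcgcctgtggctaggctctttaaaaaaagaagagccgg
Arid1b intronic peak, higher rank in WT, chr17:5189844-5190044, plus strand: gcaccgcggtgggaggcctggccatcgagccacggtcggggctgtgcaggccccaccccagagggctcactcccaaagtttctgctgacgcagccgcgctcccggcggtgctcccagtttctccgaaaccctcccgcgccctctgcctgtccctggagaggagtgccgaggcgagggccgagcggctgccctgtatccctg
Arid1b intronic peak, higher rank in cKO, chr17:5007169-5007369, plus strand: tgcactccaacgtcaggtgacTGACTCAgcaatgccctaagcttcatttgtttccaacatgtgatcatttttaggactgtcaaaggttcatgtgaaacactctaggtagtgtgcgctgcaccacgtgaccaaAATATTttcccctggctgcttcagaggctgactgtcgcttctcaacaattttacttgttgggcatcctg
Jarid2 intronic peak, chr13:44869531-44869731, plus strand: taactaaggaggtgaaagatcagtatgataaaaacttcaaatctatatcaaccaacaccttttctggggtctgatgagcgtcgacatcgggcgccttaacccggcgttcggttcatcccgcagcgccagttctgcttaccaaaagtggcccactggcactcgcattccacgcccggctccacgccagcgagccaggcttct
The Kdm5a promoter window was 48.8% A+T and held no searched site. The Kdm5b promoter window was 24.9% A+T with 1 AP-1 site and 1 SP and KLF site, and the peak upstream of Kdm5b was 29.9% A+T with 2 SP and KLF sites. The Arid1b peak that ranked higher in WT lay in an intron and was 28.9% A+T, without any searched site. The Arid1b peak that ranked higher in cKO was 53.7% A+T and held 1 AP-1 and 1 ARID5 site. The Jarid2 window held no searched site.

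The number of peaks at the 10 genes followed the length of the list in which they were called. WT lists 1, 2 and 3 held 40492, 50704 and 55091 peaks, while cKO lists 1, 2 and 3 held 58297, 46415 and 51464. Peaks called at the 10 genes numbered 72, 78 and 87 in WT, against 94, 76 and 83 in cKO samples. The shortest list had the fewest and the longest the most, and the genotypes overlapped. Their mean was 79 ± 7.55 for WT against 84.3 ± 9.07 for cKO (SD, n = 3 each). As a share of the list, peaks at these genes made up 0.163% ± 0.0128 for WT and 0.162% ± 0.00143 for cKO (SD, n = 3 each). Read depth was not used here, so a peak that was not called may still be accessible.

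Most of these peaks were distal. Of the 116, 15 were promoter peaks of the gene itself, 2 were promoter peaks of neighbours (Pigv beyond the end of Arid1a and Ccdc77 upstream of Kdm5a) and 99 were distal. Promoter peaks were called in all 6 lists in 13 of 15 cases (86.7%, against 79.1% of all promoter peaks), and distal peaks in 37 of 99 (37.4%, against 35.6% of all distal peaks). A further 30 distal peaks were called in 1 list only (30.3%, against 25.4% of all distal peaks), 12 of them in cKO 1, the longest list. The distal summits lay in introns in 84 cases. Every one of the 10 genes had a promoter peak in all 6 lists, whereas 12263 of the 21911 protein-coding genes (56.0%) had one.

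**Figure D1:**
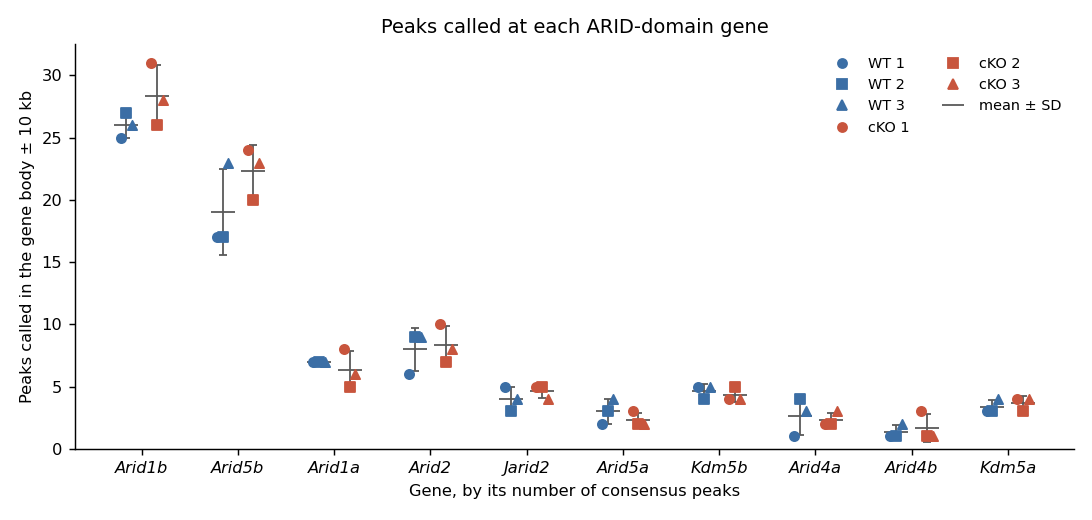
Number of peaks called with a summit in the gene body or within 10 kb of it, for each gene and sample (points, circle, square and triangle for samples 1, 2 and 3) with the mean and SD of each genotype (n = 3). Arid1b with 25 to 31 peaks and Arid5b with 17 to 24 stand above the other genes, and the WT and cKO points overlap at each gene.

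The BAF subunit gene Arid1a (ENSMUSG00000007880.16) spans 133679008 to 133756769 of chromosome 4, minus strand. It had 7 peaks in each WT sample and 8, 5 and 6 in cKO 1, 2 and 3. Of its 11 consensus peaks, 8 were distal, and 2 of those were called in all lists. The stronger promoter peak, at chr4:133754091-133754777, had its summit 350 bp upstream of the start of a retained-intron transcript, 721 bp upstream of the nearest protein-coding start. Its shared percentile was 66.6, 50.8 and 38.6 in WT 1, 2 and 3, against 23.2, 51.0 and 16.5 in cKO 1, 2 and 3. The cKO 1 and cKO 3 values were below every WT value, and cKO 2 was above WT 2 and WT 3. The cKO mean was lower by 21.8 percentile points on average (exact two-sided permutation test, p = 0.3). The strongest distal peak of Arid1a, in an intron at chr4:133729176-133730432, had a median shared percentile of 65.5.

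Arid1b (ENSMUSG00000069729.14), the alternative to Arid1a in the same complex, spans 353.3 kb of chromosome 17 on the plus strand, from 4994332 to 5347656. Its promoter ranked low and its introns held many peaks. The stronger promoter peak, at chr17:4994816-4996734, had its summit in a coding exon 19 bp past a protein-coding start, with a shared percentile of 14.2, 9.75 and 14.4 in WT 1, 2 and 3, against 8.55, 13.2 and 4.27 in cKO 1, 2 and 3. Those values overlapped between the genotypes. Distal consensus peaks numbered 36, more than at 99.9% of protein-coding genes. Counted per length, Arid1b had 9.64 distal peaks per 100 kb, more than 90.4% of genes. The farthest distal summit was 290 kb from any start of the gene.

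Of the 36 distal peaks of Arid1b, 15 were called in all 6 lists. The strongest of them, at chr17:5189503-5190653, was 149366 bp from the nearest Arid1b start. Its shared percentile was 95.7, 95.3 and 95.4 in WT 1, 2 and 3, against 86.9, 94.9 and 88.7 in cKO 1, 2 and 3. All cKO values were below all WT values, with cKO 2 nearest to them. The next, at chr17:5295300-5296174, had 80.7, 81.4 and 86.5 in WT, against 92.1, 81.4 and 95.6 in cKO samples. There the cKO mean was higher by 6.80 points, and the genotypes overlapped at cKO 2. The peak at chr17:5152970-5154331 had a median of 62.7.

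Arid2 (ENSMUSG00000033237.19), which encodes the PBAF subunit, spans 96287518 to 96404992 of chromosome 15, plus strand. It had 6, 9 and 9 peaks in WT 1, 2 and 3, against 10, 7 and 8 in cKO 1, 2 and 3. Its promoter peak at chr15:96284884-96288170 had a summit 702 bp upstream of a protein-coding start and a shared percentile of 48.7, 36.4 and 15.2 in WT, against 15.4, 32.8 and 14.4 in cKO samples. WT 3 lay among the cKO values. Among its 4 distal peaks called in all lists, all intronic, the highest medians were 46.7 at chr15:96341076-96341448, 35.0 at chr15:96342771-96343180 and 33.4 at chr15:96325502-96326788. The peak at chr15:96342771-96343180 has 7 other copies in the genome that align over at least 60% of its length with at least 90% identity, so its reads could come from any of them.

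**Figure D2:**
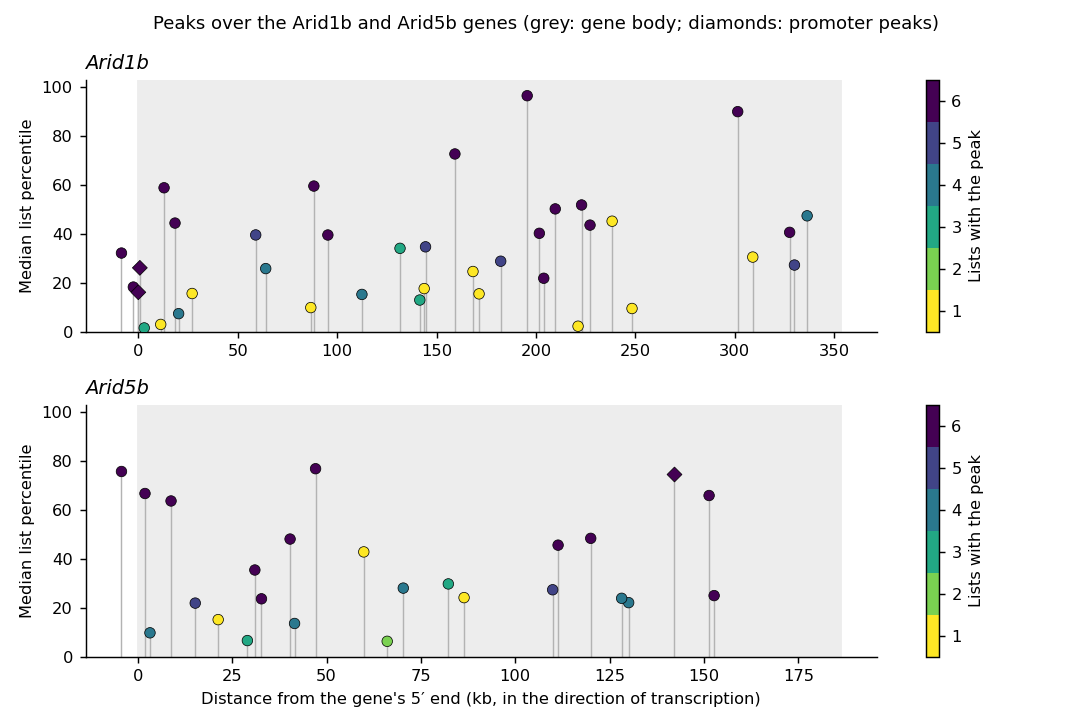
Every consensus peak of Arid1b (38) and Arid5b (25), placed by the distance of its summit from the 5′ end of the gene in kb, with its median list percentile (0 to 100) over the lists that called it and its colour for the number of lists. The strongest Arid1b peaks lay deep in its introns, and the only promoter peak of Arid5b lay 142 kb inside the gene.

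Arid4a (ENSMUSG00000048118.17) and Arid4b (ENSMUSG00000039219.18), the genes of the SIN3 complex subunits, had open promoters and few other peaks. Neither had a distal peak in all 6 lists. The Arid4a promoter peak at chr12:71015057-71017129 also lay at the start of 3110056K07Rik, and the Arid4b promoter peak at chr13:14062747-14064944 at the start of Ggps1, so the signal cannot be assigned to 1 gene of either pair. The Arid4a peak had a shared percentile of 80.2, 65.0 and 63.0 in WT 1, 2 and 3, against 44.8, 74.3 and 67.2 in cKO 1, 2 and 3. For Arid4b the values were 84.0, 83.7 and 80.3 in WT, against 60.9, 91.0 and 76.9 in cKO samples. In both, cKO 1 was the lowest of the 6 samples and the genotypes overlapped. Arid4b ranked above Arid4a in 6 of 6 lists, by 13.8 ± 5.75 points of the shared percentile (SD, n = 6 lists).

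Arid5a (ENSMUSG00000037447.16) encodes a protein known for binding both DNA and mRNA, and ARID5B acts as a transcriptional coactivator. The short Arid5a gene, 16.3 kb on chromosome 1, had a promoter peak at chr1:36307407-36309917 with its summit 22 bp past a protein-coding start. Its shared percentile was 68.3, 62.1 and 70.3 in WT 1, 2 and 3, against 69.9, 85.1 and 79.1 in cKO 1, 2 and 3. Only WT 3 and cKO 1 kept the ranges from parting, and the cKO mean was higher by 11.1 points (exact permutation test, p = 0.2). No distal peak of Arid5a was called in all lists. One just past its end, at chr1:36324174-36324437, was found in 2 WT lists and in 0 cKO lists, at list percentiles of 15.9 in WT 1 and 7.67 in WT 3.

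Arid5b (ENSMUSG00000019947.10) spans chromosome 10 from 68092520 to 68278740 on the minus strand, and its only peak in the promoter window was at an internal start. No list had a peak over the 5′ end of the annotated gene, and the nearest peak ended 1378 bp away, inside the gene. That nearest peak, at chr10:68276235-68277362, was called in all 6 lists, with a median shared percentile of 47.7. Its summit lay 1857 bp past the nearest start, outside the promoter window, so it was counted as distal. The promoter peak called in all 6 lists, at chr10:68136100-68137374, had its summit 54 bp upstream of the start of a protein-coding transcript that begins 142 kb into the gene. The shared percentile of this internal promoter was 59.2, 65.3 and 72.0 in WT 1, 2 and 3, against 78.2, 60.3 and 57.2 in cKO 1, 2 and 3. The genotypes overlapped and their means differed by 0.247 points.

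Around it Arid5b had 24 distal consensus peaks, more than at 99.7% of protein-coding genes, and 11.6 per 100 kb, more than at 94.1%. Those called in all lists numbered 11. The strongest were at chr10:68229996-68232114 in an intron, with a median shared percentile of 65.6, at chr10:68282341-68283532 upstream of the gene, with 60.9, and at chr10:68268545-68270226 in an intron, with 48.1. One of the weaker of the 11, at chr10:68245775-68246493, has 735 other copies in the genome by the same alignment rule. A peak found in 2 cKO lists and 0 WT lists lay at chr10:68212455-68212848, at list percentiles of 5.42 in cKO 1 and 7.25 in cKO 3. Both places are near the bottom of their lists.

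The H3K4 demethylase genes Kdm5a (ENSMUSG00000030180.15) and Kdm5b (ENSMUSG00000042207.17) had opposite layouts. Kdm5a, on chromosome 6 from 120364124 to 120444574, had the highest promoter of the 10 genes. Its peak at chr6:120363106-120364913 had a shared percentile of 92.7, 80.5 and 82.6 in WT 1, 2 and 3, against 88.3, 90.9 and 82.7 in cKO 1, 2 and 3. Its only distal peak called in all lists was intronic, at chr6:120376257-120377324, with a median of 53.9. The peak at the start of the neighbour Ccdc77, 6695 bp upstream of Kdm5a, had a median of 92.9.

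Kdm5b, on chromosome 1 from 134560171 to 134635285, had a promoter among the lowest in rank and distal peaks above it. The promoter peak at chr1:134560063-134561229 had a shared percentile of 19.5, 24.6 and 6.68 in WT 1, 2 and 3, against 11.0, 22.1 and 11.3 in cKO 1, 2 and 3. The genotypes overlapped. Kdm5a ranked above Kdm5b in 6 of 6 lists, by 70.4 ± 7.77 points (SD, n = 6). Each of the 3 distal Kdm5b peaks called in all lists stood above its promoter by median. They were at chr1:134609222-134610366 in an intron with 78.2, at chr1:134583249-134584151 in an intron with 61.5, and at chr1:134555217-134557266 upstream of the gene with 48.1.

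Jarid2 (ENSMUSG00000038518.15), the gene of the PRC2 cofactor, spans 44729474 to 44921643 of chromosome 13, plus strand. Its 5′-most start was 66 bp outside the nearest peak, and the promoter peak at chr13:44729540-44731336 lay 163 bp upstream of another protein-coding start. The shared percentile there was 52.7, 52.5 and 30.0 in WT 1, 2 and 3, against 25.3, 53.4 and 18.2 in cKO 1, 2 and 3. As at Arid1a, cKO 1 and cKO 3 were below every WT value and cKO 2 was not. An internal Jarid2 promoter, at chr13:44839659-44840516 and 688 bp upstream of a protein-coding start, was called in 2 WT lists and all 3 cKO lists. Its list percentile was 28.4 in WT 1 and 25.2 in WT 3, against 66.8, 50.5 and 43.9 in cKO 1, 2 and 3. This peak was singled out after its values were seen. In a limma fit that allowed 1 missing sample per genotype its unadjusted p was 0.0315 and its adjusted p was 0.806 over 42814 peaks. That fit found 2 of 68 peaks of these genes at an unadjusted p under 0.05 (2.94%, against 5.77% of all). The other, a distal Arid5b peak at chr10:68148633-68149069, ran the opposite way, with list percentiles of 61.9 in WT 2 and 22.5 in WT 3, against 21.8 in cKO 1 and 3.06 in cKO 3.

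The strongest peak of all 116 was intronic in Jarid2, at chr13:44869571-44870023, 28848 bp from the nearest start. Its fold enrichment was 27.4, 28.9 and 30.5 in WT 1, 2 and 3, against 27.7, 27.1 and 24.7 in cKO 1, 2 and 3. By fold it stood at place 8, 9 and 7 from the top of the WT lists and 7, 9 and 6 of the cKO lists. Its shape was also unlike the others. The start was at the same base in every list and the end varied by 1 bp, whereas the summed range of starts and ends had a median of 485 bp and a smallest value of 83 bp over the other shared peaks of these genes. The sequence has 15 other copies on the assembled chromosomes with 90.9% to 98.9% identity, of which 5 had a peak in any list and 2 had one in all 6. The copy on chromosome 16 had a median shared percentile of 99.9 and the copy on chromosome 2 one of 59.7. Copies of this kind were found for 3 of the 52 peaks of these genes that were called in all lists. The letters of this peak look like a stretch of the large ribosomal RNA gene, which was not tested. Whether the reads came from the Jarid2 intron was not tested either, so the fold and the place of this peak cannot be read as accessibility of Jarid2.

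The promoters were put in order by the median shared percentile of their strongest peak. From the top these were Kdm5a with 85.5, Arid4b with 82.0, Arid5a with 70.1, Arid4a with 66.1 and Arid5b at its internal start with 62.8. Below them came Arid1a at an internal start with 44.7, Jarid2 with 41.2, Arid2 with 24.1, Kdm5b with 15.4 and Arid1b with 11.5. Neighbours in this order overlapped in their 6 values in every case, so the order of neighbours is not fixed by these samples. Over the 10 genes the median was 53.7, below the 77.1 of all protein-coding genes with a promoter peak in 6 lists. Within the BAF pair, Arid1a ranked above Arid1b in 6 of 6 lists, by 30.4 ± 16.0 points (SD, n = 6), while Arid5a ranked above Arid5b in 3 of 6. The Arid1a peak over the 5′ end of the gene, with a lower median of 23.7, did not enter this order or this pair.

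**Figure D3:**
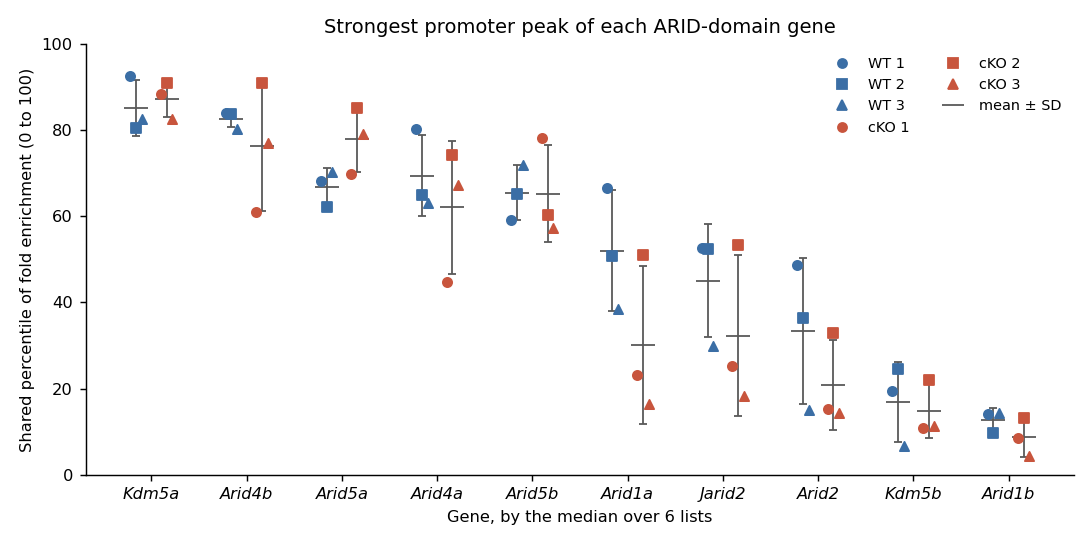
Shared percentile (0 to 100) of the strongest promoter peak of each gene in each sample (points, circle, square and triangle for samples 1, 2 and 3), ordered by the median over 6 lists, with the mean and SD of each genotype (n = 3). Kdm5a and Arid4b were highest and Arid1b and Kdm5b lowest, and at each gene the WT and cKO points overlapped.

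The genotypes were compared first by where peaks were called. Of the 116 consensus peaks, 0 were present in every cKO sample and absent from every WT sample, against 0.464% of all consensus peaks. The reverse was found for 0 as well, against 0.111% of all. Shares this low give less than 1 peak among 116, so these counts do not set the genes apart. For single genes, the exact permutation test of the number of peaks gave p from 0.3, at Arid1b and Arid5b, to 1. At 3 samples a side this test cannot go below 0.1. Arid1b had 25, 27 and 26 peaks in WT 1, 2 and 3, against 31, 26 and 28 in cKO 1, 2 and 3, and Arid5b 17, 17 and 23 against 24, 20 and 23. The most at both genes were in cKO 1, the longest list.

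The strength of the peaks was then compared among the 52 peaks called in all 6 lists. The limma test on the normal scores of the ranks called 0 of these 52 peaks and 0 of all 32748 shared peaks (0%) at an adjusted p under 0.05. At an unadjusted p under 0.05, limma found 0 of the 52 and 2365 of all (7.22%). The lowest p at these genes was 0.0512, at the stronger Arid1a promoter peak, with an adjusted p of 0.688. The lowest adjusted p over all shared peaks was 0.567.

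Ranks that did not overlap between the genotypes were found for 4 of the 52 peaks. In 1 peak all cKO values were above all WT values, against 5.86% of all shared peaks, and in 3 all cKO values were below, against 6.08% of all. These shares, 1.92% and 5.77% of the 52, are below and near the background, and the first was above it in other settings, with 4 peaks (7.69%, against 6.34% of all) when ranked by −log10 q. The peak higher in cKO was the Arid1b intronic peak at chr17:5006501-5007658, the one with an AP-1 and an ARID5 site, with 40.6, 37.6 and 34.9 in WT 1, 2 and 3 against 41.0, 42.8 and 45.7 in cKO 1, 2 and 3. Of the 3 lower in cKO, the largest difference was at the peak upstream of Kdm5b, with 59.6, 53.6 and 49.1 in WT, against 28.9, 47.1 and 31.5 in cKO samples, a cKO minus WT difference of −18.3 points, or of −7.43 when peaks were ranked by −log10 q. The others were Arid1b peaks, the strong one described above and one at chr17:5220976-5222035, with 32.8, 28.5 and 29.5 in WT, against 17.9, 18.6 and 23.7 in cKO samples. Ranked by −log10 q, their differences of −5.29 and −10.2 points became −2.00 and −6.84. For each of these 4 peaks the exact permutation p was 0.1, the smallest possible, and the limma adjusted p was 0.695 or more.

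**Figure D4:**
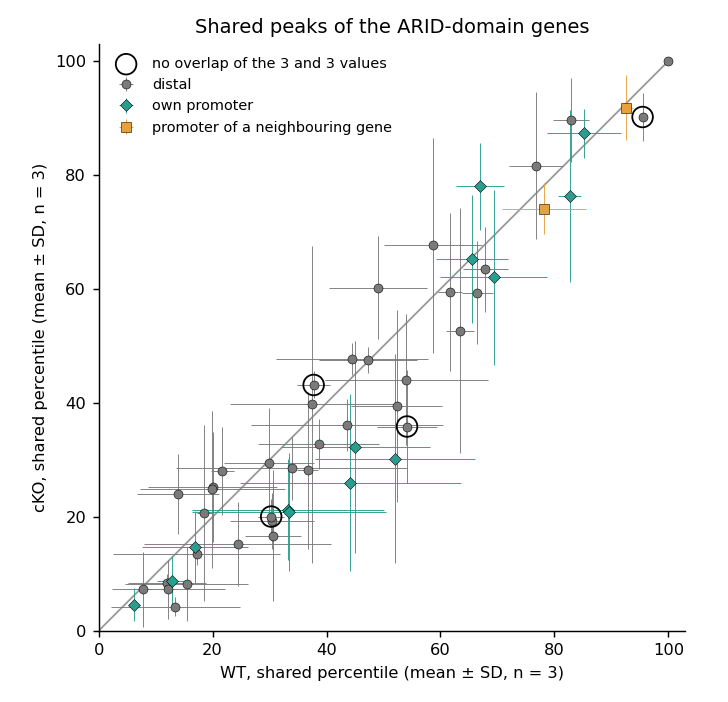
Mean shared percentile (0 to 100) in cKO against WT samples for the 52 peaks called in all lists, with SD bars (n = 3 per genotype), the line of equality and circles round the 4 peaks whose values did not overlap. More points lie below the line than above it, 36 against 16, and the bars of most cross it. The share below is 69.2%, against 53.9% of all shared peaks.

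The mean of the cKO samples was the lower one for 36 of the 52 peaks (69.2%, against 53.9% of all shared peaks). Among promoter peaks it was lower for 11 of 13 (84.6%, against 64.8% of all promoter peaks), with a median cKO minus WT difference of −6.38 points, against −2.36 over all promoter peaks. Among distal peaks it was lower for 23 of 37 (62.2%, against 46.3% of all distal peaks). The peaks of a sample are not independent, and these shares were not tested.

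The same difference was taken for promoters of other gene lists. With 1 promoter a gene, the median cKO minus WT difference was −5.24 points for the 10 genes, against −2.71 for all protein-coding genes. It was −8.78 for the SIN3 complex, −4.99 for PRC2, −4.68 for the H3K4 methyltransferase complexes and −4.66 for BAF and PBAF subunits. For the 4 other ARID genes with a promoter peak in all lists it was −1.85. Their single values lay far apart, with −13.2 at Arid3a, −5.79 at Kdm5c, 2.08 at Arid3b and 21.5 at Arid3c. For 11 promoters of crypt epithelium markers it was −12.5. Of these, 3 had ranks that did not overlap, all lower in cKO samples, against 936 of the 12263 promoters of all protein-coding genes. Such lower ranks were found for 3 of 23 BAF and PBAF, 1 of 11 PRC2, 1 of 10 methyltransferase and 0 of 11 SIN3 complex promoters. Over all promoter peaks called in 6 lists the share of lower ranks was 7.38%. In the other direction, all cKO ranks lay above all WT ranks at 1 of 11 PRC2 and 1 of 10 methyltransferase promoters. This held for 0 promoters of the marker, BAF and PBAF and SIN3 lists, against 430 of the 12263. The limma test found 0 of the 11 marker promoters at an unadjusted p under 0.05. The median marker promoter of this list stood at 62.5, 51.3 and 54.3 in WT 1, 2 and 3, against 34.3, 56.5 and 37.3 in cKO 1, 2 and 3, so cKO 2 again lay with the WT samples. Of the 3 stromal and vessel promoters called in all lists, Kdr, a receptor gene of endothelial cells, had a difference of 25.2 points, Col1a1 of 7.06 and Pdgfra of −8.72. The part of these markers in the differences at the 10 genes was not tested.

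These shifts were uneven over the samples. In WT 1, 2 and 3 the median promoter peak of these genes had a shared percentile of 59.2, 50.8 and 30.0, and in cKO 1, 2 and 3 of 23.2, 51.0 and 18.0. WT 3 was low among WT samples and cKO 2 was high among cKO samples, so that cKO 2 lay within the WT range. All promoter peaks of the genome ran the same way in cKO samples but over a smaller range, with medians of 74.3, 72.2 and 71.6 in WT, against 66.7, 73.6 and 67.0 in cKO samples. The median distal peak of these genes was at 38.7, 33.7 and 38.6 in WT, against 28.9, 37.0 and 31.5 in cKO samples. All distal peaks of the genome did not run the same way. Their medians were 36.9, 37.5 and 38.0 in WT, against 40.4, 37.2 and 40.1 in cKO samples, so cKO 1 and cKO 3 were above the WT samples. Without cKO 2, 21 of 54 peaks of these genes ranked lower in both remaining cKO samples than in all WT samples (38.9%, against 23.6% of all shared peaks), and limma found 8 of the 54 at an unadjusted p under 0.05 (14.8%, against 18.7% of all) and 0 at an adjusted one. Whether a property of the libraries sets these shifts was not tested.

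**Figure D5:**
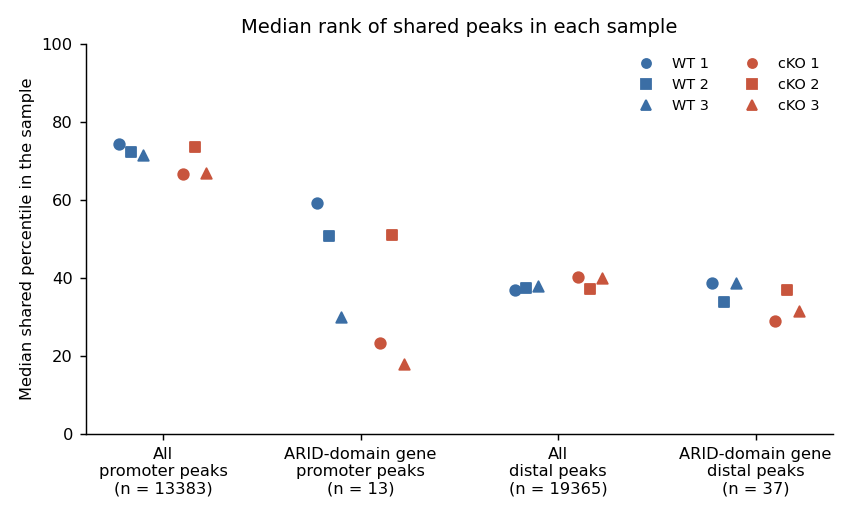
Median shared percentile (0 to 100) of promoter and distal peaks called in all lists, in each sample, for all genes and for the 10 ARID-domain genes (circle, square and triangle for samples 1, 2 and 3). The promoter medians of the 10 genes spread from 18.0 to 59.2 over the samples, those of all promoter peaks from 66.7 to 74.3, and cKO 2 lay with the WT samples in both.

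Sequence features that the choice of genes had not used were compared within 100 bp of each summit. Promoter peaks of the 10 genes were 35.0% ± 8.91 A+T (SD over 15 peaks), against 37.3% over all promoter peaks, and distal peaks were 51.6% ± 7.49 (SD over 99 peaks), against 50.4% over all distal peaks. The motifs were searched on both strands without mismatches, and a match describes the letters and not a bound factor. ARID3 letters (ATCAAA or ATTAAA) were in 25 of 99 distal peaks (25.3%, against 19.0% of all distal peaks). AP-1 sites were in 10 of 99 (10.1%, against 9.56%), HNF4 sites (CAAAGTCCA or CAAAGTTCA) in 3 (3.03%, against 3.00%), GATA letters (AGATAA) in 12 (12.1%, against 15.3%) and ARID5 letters in 4 (4.04%, against 4.41%). SP and KLF letters were in 8 of the 15 promoter peaks (53.3%, against 47.3% of all promoter peaks) and ETS letters (CCGGAAG) in 0 (against 10.1%).

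Arid5b and Arid1b, the genes with most distal peaks, held these letters at unequal shares. AP-1 sites were in 5 of 24 distal Arid5b peaks (20.8%) and in 2 of 36 distal Arid1b peaks (5.56%). ARID3 letters were in 9 of 24 (37.5%) and 7 of 36 (19.4%). The distal windows were 54.4% ± 7.12 A+T at Arid5b and 49.9% ± 6.79 at Arid1b (SD over peaks). These counts are small and stand as a description, without a test.

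The partners of these proteins had open promoters as well. Among 27 genes of BAF and PBAF subunits, 23 had a promoter peak in all 6 lists, with a median shared percentile of 73.3. Of the others, Actl6b, a subunit of the neuronal complex, had one in 3 WT and 2 cKO samples, and none was called at the annotated starts of Bcl7b, Bicral and Phf10. All 11 PRC2 genes had one, with a median of 83.9, as did all 11 genes of the SIN3 and histone deacetylase complex, with 76.4, and all 10 genes of the H3K4 methyltransferase complexes that act against KDM5 enzymes, with 70.5. Each of these medians was above the 53.7 of the 10 ARID-domain genes. In the same lists Arid1b at 11.5 stood far below the BAF ATPase gene Smarca4 at 79.0, and Jarid2 at 41.2 below the PRC2 genes Ezh2 at 81.8 and Suz12 at 83.9. The 11 crypt epithelium marker promoters had a median of 51.5 and reached down to 3.92, at Krt8. How the rank of a promoter relates to its activity was not tested. Between the genotypes, the limma test found the PRC2 gene Rbbp7 and the methyltransferase complex gene Rbbp5 at an unadjusted p under 0.05, against 6.14% of all protein-coding promoters, and 0 genes of these lists at an adjusted one. Among the other lists it found Arid3c and Kdr at an unadjusted p, with adjusted p-values of 0.688 and 0.661. The cKO minus WT difference was −20.8 points at Rbbp7, 16.7 at Rbbp5, 21.5 at Arid3c and 25.2 at Kdr.

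Of the ARID genes outside the 10, Arid3b was the highest, with a median shared percentile of 94.0, followed by Kdm5c with 82.0, Arid3a with 35.0 and Arid3c with 32.7. Kdm5d, on chromosome Y, had a promoter peak in 1 WT and 0 cKO samples. Defining markers were checked for the labelled tissue. A promoter peak was called in all lists at 11 of 12 epithelial and stem cell genes, Lgr5, Olfm4, Epcam and Cdh1 among them, with Cdx1 the exception. It was called in all lists at 0 of 10 immune genes, with no peak in any list at 9, the pan-leukocyte gene Ptprc among them, and at Itgal in 1 WT and 2 cKO samples. Of 9 stromal and vessel genes, 3 had one in all lists, Col1a1, Pdgfra and Kdr, and Des had one in 1 WT and 1 cKO sample. In bulk crypts, a change in the mixture of cells and a change of accessibility within a cell type cannot be told apart.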

How the data were processed

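ATAC-seq peaks of 3 WT and 3 cKO samples were compared, with groups taken from the labels. The authors trimmed adapters, aligned reads to GRCm38 with BWA, removed blacklisted regions and called narrow peaks per sample with MACS2. The deposited fold enrichment is the authors' ratio of summit signal to local background, and the authors' −log10 q comes from the caller's model of that background. No read counts were used here, so the study's count model could not be run.

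Peaks on 21 chromosomes were kept, which left out 61 to 92 per list. The largest peak end lay within the reference length on 21 of 21 chromosomes, and 0 of 15 pairs of lists were identical. Lists were merged by at least 1 bp of overlap, with the peak of largest fold standing for a list. Genes came from GENCODE M21. Ranks of fold among shared peaks were turned into normal scores and fitted in limma 3.58.1 (R 4.3.3, genotype only, trended eBayes), with Benjamini-Hochberg adjustment over all 32748. On simulated data, 10 of 100 peaks shifted by 1 normal score unit and 85 of 100 shifted by 2 were recovered. The simulated noise was independent for each peak and sample and held no shift over a whole sample. These rates therefore need not hold for the lists used here. Single values were compared by exact two-sided permutation tests. Copies were sought with blastn 2.17.0. Software was Python 3.11.15, scipy 1.17.1, pandas 2.3.3, numpy 2.4.6, pysam 0.24.0 and matplotlib 3.10.9.

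The genes, lists, motifs and tests were chosen with earlier results of these data known. For each gene, the text names the strongest promoter peak, up to 3 distal peaks called in all lists with the highest median rank, and peaks whose ranks did not overlap. Peaks with other copies, peaks in 2 of 3 samples of 1 genotype alone, neighbours' promoters and the internal Jarid2 promoter were added after their values were seen. So were the Arid1a peak over the 5′ end of the gene and the Arid5b peak nearest its 5′ end. Alternatives were a −log10 q of at least 5, ranks by −log10 q or in the whole list, quantile-normalised log2 fold, equal list lengths, windows of 501 bp, gene bodies only, looser rules on missing samples, a wider promoter window, a replicate block and leaving out each sample.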

Additional observations from a re-analysis of the deposited data

How the results depend on the processing

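The limma test called 0 of the peaks of these genes under each alternative it was run for, which leaves out equal list lengths, gene bodies only and the wider promoter window. It called 0 of all shared peaks as well, except with a replicate block, where it called 2, none of them at these genes. Samples with the same replicate number did not deviate together (correlations of −0.27, −0.00493 and 0.122), so the numbers were not read as pairs. At an unadjusted p under 0.05, 0 to 3 peaks of these genes were found (0% to 5.77%, against 3.72% to 8.86% of all shared peaks), except for 8 without cKO replicate 2 (14.8%, against 18.7%).

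Peaks called in cKO samples only numbered 0, or 1 with a −log10 q of at least 5 (at Jarid2), 1 when 2 of 3 samples sufficed (at Arid5b) and 0 to 2 with 1 sample left out. Peaks called in WT samples only numbered 0, or 1 when 2 of 3 sufficed (at Arid5a) and 0 to 1 with 1 sample left out. The share over all consensus peaks was not computed for these alternatives, so these counts cannot be set against it. Non-overlapping ranks higher in cKO samples were found for 1 peak. With a −log10 q of at least 5 there were 3 (6.82%, against 5.74% of all), and 4 when ranked by −log10 q (7.69%, against 6.34%). Both shares were above those of all peaks in place of below. With 1 sample left out there were 1 to 4, the 1 without cKO replicate 3 and 3 or 4 without any other. Each of these leave-out shares (1.92% to 7.69%) was below the matching share of all peaks (8.49% to 16.1%). Non-overlapping ranks lower in cKO samples were found for 3 peaks, and for 3 to 21 with 1 sample left out. Without cKO replicate 2 there were 21 (38.9%, against 23.6% of all) and without cKO replicate 3 there were 6 (11.5%, against 8.77%). Without cKO replicate 1 there were 3 (5.77%, against 8.99%). Without WT replicate 1 there were 7 (12.1%, against 10.2%), without WT replicate 2 there were 6 (10.9%, against 9.72%) and without WT replicate 3 there were 5 (9.62%, against 13.5%). With 1 sample left out, such parting is easier and the share over all peaks rose too. Ranked by −log10 q, the Kdm5b peak difference was −7.43 in place of −18.3, and those of the Arid1b peaks −2.00 in place of −5.29 and −6.84 in place of −10.2, the last −6.40 with a −log10 q of at least 5. With lists of equal length, the cKO minus WT difference in the summed number of peaks was −2.67 in place of 5.33. Widening the promoter window to 1000 bp downstream gave 17 promoter peaks in place of 15.

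Peak lists hold no counts, so absent calls cannot be told from low depth, and 3 samples per genotype limit the exact tests to p = 0.1.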
